A study of Mus musculus with 26 samples.

Results

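FOXO transcription factors and genes that respond when PI3K signalling is off were followed in 3 murine EML4-ALK lung cancer cell lines treated with the ALK inhibitor alectinib. The 9 genes are Pik3ca, Pik3ip1, Foxo1, Foxo3, Foxo4, Sesn1, Sesn3, Ccng2 and Bcl6. They were taken by symbol from a count table of 55391 gene symbols, and all 9 were found and passed the filter on low counts that left 14264 genes for testing. EA1, EA2 and EA3 are cultured lines from tumors of C57BL/6 mice and all carry the EML4-ALK fusion. EA2 was obtained from another laboratory. Each line is 1 isolate, so a difference between lines cannot be assigned to any one feature of its origin. Cultures received 100 nM alectinib or 0.1% DMSO, and RNA was sequenced on days 1, 2, 3 and 5, with 1 library per line, treatment and day (24 libraries). The 4 days of a line and treatment stood as its replicates, and p-values therefore measure the spread of the alectinib response over days and not between repeated cultures.

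PI3K makes the membrane lipid that activates the kinase AKT, and AKT phosphorylates FOXO factors and keeps them out of the nucleus. When an upstream receptor tyrosine kinase such as ALK is blocked, AKT activity falls, FOXO proteins can enter the nucleus, and they bind forkhead motifs near genes for receptors and adaptors, stress-response proteins and cell cycle inhibitors. Control of FOXO proteins is mainly through phosphorylation and location, which transcript levels do not measure. The comparisons below ask whether transcripts of the pathway and of its response genes differed between alectinib and DMSO in each line, between lines, and over days.

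The 24 libraries held 5780062 to 11732401 counts (median 9252878), and levels are given in CPM, the count scaled to the library's total. Every one of the 24 libraries correlated best with other libraries of its own line and treatment (r from 0.953 to 0.990). A further 2 libraries labelled EA3 day 7 went against that label. Their correlation was highest with EA2 DMSO (0.967) and EA2 alectinib (0.986) and lower with the matching EA3 groups (0.887 and 0.876). They entered only the alternative fits named below as all 26 libraries. Those fits count them as EA3, as labelled, so an EA3 value there mixes in libraries closest to EA2. Of 10 MAPK response genes, which report on signalling below ALK, 7 fell in EA1, 9 in EA2 and 8 in EA3. Falls among all 14264 tested genes numbered 2080, 1615 and 2157 in the same order of lines. Of 8 epithelial markers, Cdh1, Krt8, Krt18 and Krt19 were found in every library, at 10.3 CPM or more, whereas Epcam, Cldn4, Cldn7 and Esrp1 were at 0 in some. Krt18 fell in all 3 lines (log2 fold changes of -1.51, -1.79 and -1.13), Krt8 fell in EA2 (-2.61), Cdh1 rose in EA2 and EA3 (1.55 and 0.65) and Epcam rose in EA1 (2.45). Of 7 lung epithelial genes, Nkx2-1, Sftpb, Sftpc, Sftpa1, Scgb1a1 and Hopx had at most 7 counts in any library, and Ager had 5 to 142 and rose in EA3 (1.20, adjusted p = 0.0208). Fibroblast marker genes also moved with alectinib. Their summed level in EA1 was 9.08 to 44.1 CPM with DMSO and 126 to 478 CPM with alectinib. The ranges were 58.5 to 71.5 CPM and 122 to 239.8 CPM for EA2, and 10.2 to 20.2 CPM and 84.8 to 274 CPM for EA3. Of the 6 fibroblast markers tested (of 8), 5 rose in EA1, 3 in EA2 and 5 in EA3, beside 2711, 1860 and 2493 of all 14264 tested genes. The untested Lum was at 0 in all DMSO and all EA2 libraries and reached 41 counts with alectinib, and Thy1 had at most 2 counts. Of 7 leukocyte markers, Ptprc, Itgam, Cd3e, Cd79a and Lyz2 had at most 10 counts, but Cd68 had 13 to 871 and Csf1r up to 73. Neither Cd68 nor Csf1r passed the test of alectinib in any line. Of 5 endothelial markers, Tek and Vwf had at most 6 counts, Cdh5, Kdr and Pecam1 reached 58, 54 and 40, and Pecam1 fell in EA2 (-2.43, adjusted p = 0.0218). The part of these marker transcripts in the results below was not tested.

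In EA1, 4 of the 9 genes passed an adjusted p of 0.05, in EA2 2 of 9 and in EA3 4 of 9, in quasi-likelihood tests with edgeR, adjusted after Benjamini and Hochberg over 14264 genes. Among all tested genes, 33.6% passed in EA1, 24.4% in EA2 and 32.6% in EA3, so the shares of the 9 genes (44.4%, 22.2% and 44.4%) lay near those of the whole transcriptome. Pik3ip1 and Sesn3 rose in EA1 and EA3, Foxo1 rose in EA1 and EA2, Pik3ca fell in EA2 and EA3, and Bcl6 fell in EA1 and EA3. Foxo3, Foxo4, Sesn1 and Ccng2 passed in no line. The medians of the log2 fold changes of all 9 genes were 0.14, 0.13 and 0.12 in the order EA1, EA2, EA3, beside 0.06, 0 and 0.07 over all tested genes. In bulk RNA, fewer cells that express a gene and less RNA of it per cell cannot be told apart.

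**Figure D1:**
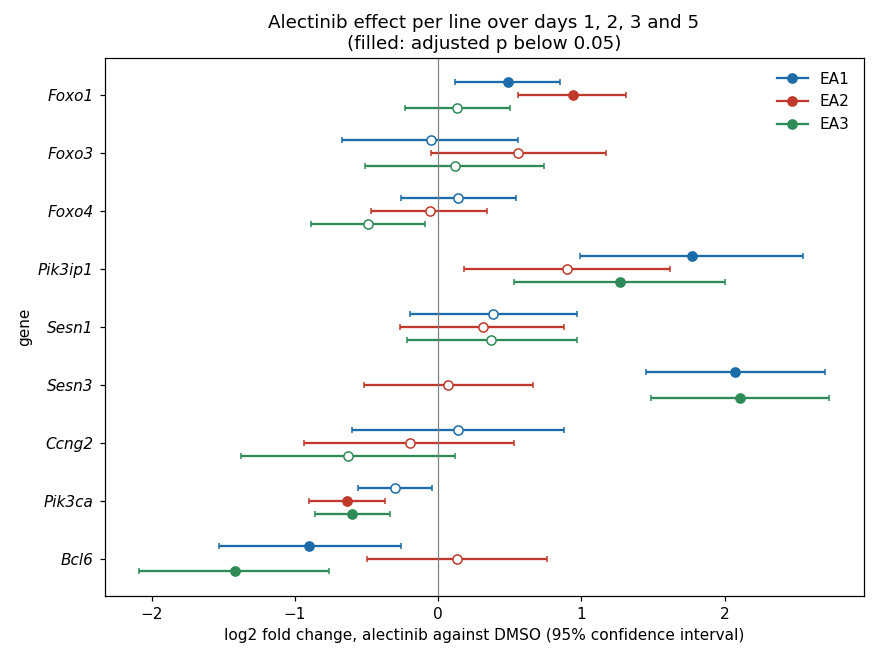
Log2 fold change of alectinib against DMSO (x axis) for each of the 9 genes (y axis) in EA1 (blue), EA2 (red) and EA3 (green), fitted over days 1, 2, 3 and 5 with 4 libraries per line and treatment. Bars are 95% confidence intervals and filled points passed an adjusted p of 0.05, as for Sesn3 at 2.07 in EA1 and 2.11 in EA3, whereas Sesn3 in EA2 is an open point at 0.07.

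Counted by sample, alectinib libraries did not overlap with DMSO libraries for 1 gene that was higher (Sesn3) and 1 that was lower (Bcl6) in EA1, beside 18.4% and 13% of all tested genes. In EA2 these were Foxo1 (higher, beside 14.3%) and Pik3ca (lower, beside 12.5%). In EA3 Sesn3 was higher, beside 12.9%, and Pik3ca and Bcl6 were lower, beside 10.7%. For the other 5 genes, Pik3ip1, Foxo3, Foxo4, Sesn1 and Ccng2, the treatment groups overlapped in every line.

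Pik3ca encodes the catalytic alpha subunit of class I PI3K (chr3:32397671-32468486 on the plus strand of mm10). In EA2 it stood at 108, 104, 140.4 and 133 CPM with DMSO on days 1, 2, 3 and 5, and at 69.2, 73.9, 95.8 and 73.3 CPM with alectinib. In EA3 it stood at 94.4, 105, 134 and 129 CPM with DMSO and at 69.7, 79.8, 79.2 and 73.0 CPM with alectinib. Every alectinib library of these lines lay below every DMSO library of its line. In EA1 the levels were 108, 91.4, 112 and 83.0 CPM with DMSO and 90.6, 78.5, 78.3 and 71.8 CPM with alectinib, and the groups overlapped because the alectinib level of day 1 exceeded the DMSO level of day 5. Pik3ca fell by 0.64 on the log2 scale in EA2 (SE 0.12, adjusted p = 0.00193) and by 0.60 in EA3 (SE 0.12, adjusted p = 0.00227). In EA1 the change was -0.30 (95% confidence interval -0.56 to -0.04) and missed the threshold (adjusted p = 0.0702) but passed with DESeq2 (-0.32, adjusted p = 0.0396). The daily log2 ratio lay below 0 on 12 of 12 line and day pairs, as it did for 6.89% of all tested genes. The size of the change did not pass the test of a difference between lines (adjusted p = 0.327).

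Pik3ip1 encodes a transmembrane protein that binds the PI3K catalytic subunit and restrains it (chr11:3330401-3342971, plus strand). The window of 250 bases before to 50 after its RefSeq start (GRCm38.p6, chr11:3330481-3330780, plus strand) is shown because Pik3ip1 and Sesn3 rose in the same lines. Capitals mark the forkhead core TGTTT or its reverse complement AAACA, searched on both strands, which 50.5% of 32851 RefSeq promoter windows of this length hold.
Pik3ip1: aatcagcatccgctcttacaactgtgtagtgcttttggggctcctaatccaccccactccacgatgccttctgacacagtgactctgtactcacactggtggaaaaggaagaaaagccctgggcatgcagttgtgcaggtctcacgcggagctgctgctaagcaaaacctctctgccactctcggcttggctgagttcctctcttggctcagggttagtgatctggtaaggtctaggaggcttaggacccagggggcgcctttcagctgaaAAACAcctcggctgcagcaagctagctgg

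In EA1, Pik3ip1 stood at 2.93, 6.35, 2.03 and 17.1 CPM with DMSO on days 1, 2, 3 and 5, and at 15.7, 15.2, 15.8 and 29.4 CPM with alectinib. In EA3 the values were 3.77, 13.4, 14.0 and 23.6 CPM with DMSO and 19.0, 28.0, 21.7 and 52.5 CPM with alectinib. In EA2 they were 16.3, 17.4, 33.6 and 28.2 CPM with DMSO and 39.6, 41.9, 69.9 and 28.1 CPM with alectinib. On each day of EA1 and EA3 the alectinib library was the higher of the pair, yet the groups overlapped because DMSO levels on day 5 (17.1 and 23.6 CPM) exceeded alectinib levels on earlier days. Pik3ip1 rose by 1.77 on the log2 scale in EA1 (SE 0.36, 3.41-fold, adjusted p = 0.00251) and by 1.27 in EA3 (SE 0.34, 2.41-fold, adjusted p = 0.0125). In EA2 the change of 0.90 (95% confidence interval 0.18 to 1.62) missed the threshold (adjusted p = 0.0652), with a day 5 ratio of 0.00. Without day 5 it was 1.20 in EA2 (adjusted p = 0.0291), and it also passed there with DESeq2 (adjusted p = 0.0409), with EA2 fitted alone (adjusted p = 0.0331) and without a filter (adjusted p = 0.00209). The EA3 call was lost without day 1 (0.96, adjusted p = 0.0678) or day 2 (1.30, adjusted p = 0.0529) and without the day as a block (adjusted p = 0.105). The 3 lines did not pass the test of a difference in this response (adjusted p = 0.447). Over 91 exon bases (2.13% of those of Pik3ip1), the opposite-strand gene Gm12592 overlaps it, and at most 34 counts were assigned to Gm12592 in a library, where Pik3ip1 itself had between 19 and 620. Since the strand setting of the counting was not given in the sources used here, reads of such partners cannot be told apart.

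The plot of levels by day shows all 9 genes in the 24 libraries.

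**Figure D2:**
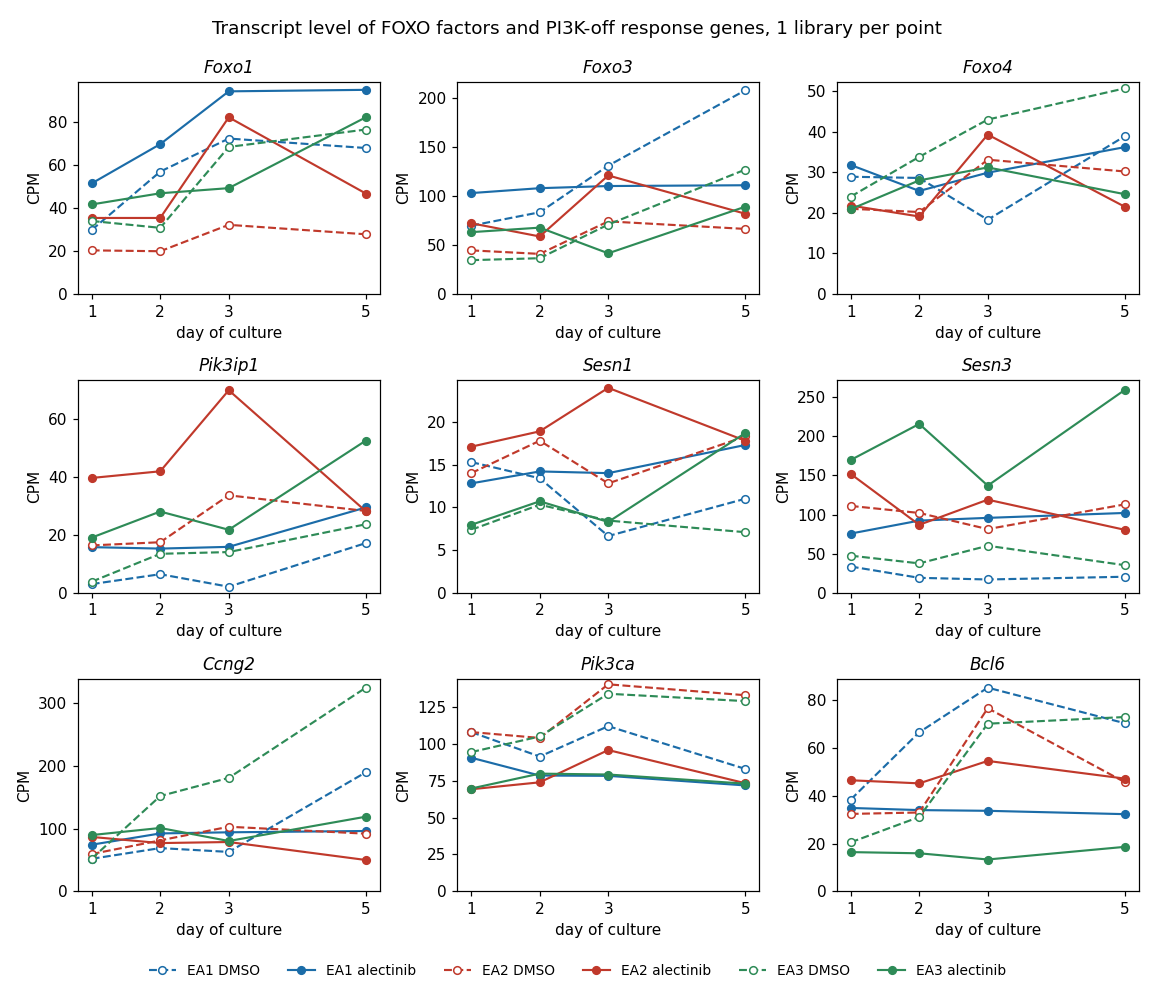
Level of each gene in CPM (y axis, from 0) on days 1, 2, 3 and 5 (x axis), 1 library per point, with dashed lines and open circles for DMSO and solid lines and filled circles for alectinib in EA1 (blue), EA2 (red) and EA3 (green). Sesn3 with alectinib lies above DMSO on all days in EA1 and EA3, Pik3ca lies below on all days in all lines, and Ccng2 with DMSO climbs to 325 CPM in EA3 while its alectinib levels stay at or below 119 CPM.

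Of the forkhead factors, only Foxo1 passed in any line. Foxo1 (chr3:52268336-52353221, plus strand) stood at 20.3, 19.9, 32.2 and 27.8 CPM with DMSO and at 35.4, 35.4, 82.3 and 46.8 CPM with alectinib in EA2, where the groups did not overlap. It rose there by 0.94 on the log2 scale (SE 0.17, 1.91-fold, adjusted p = 0.0015). In EA1 the levels were 29.8, 57, 72.4 and 68.0 CPM with DMSO and 51.5, 69.8, 94.4 and 95.1 CPM with alectinib, and each day's alectinib library was the higher. The groups overlapped there. The rise of 0.49 in EA1 (SE 0.17, adjusted p = 0.0396) lost its call under 8 of 12 alternatives, among them without day 1 (0.39, adjusted p = 0.191), day 2 (0.47, adjusted p = 0.0925) or day 5 (0.44, adjusted p = 0.158) and without the day as a block (adjusted p = 0.319). In EA3, Foxo1 stood at 34.0, 30.8, 68.5 and 76.6 CPM with DMSO and 41.7, 46.9, 49.3 and 82.3 CPM with alectinib, a change of 0.13 (95% confidence interval -0.23 to 0.50). The test of a difference between lines did not pass (adjusted p = 0.116). The promoter window of Foxo1 (GRCm38.p6, chr3:52268087-52268386, plus strand) is shown because it was the FOXO gene that passed in 2 lines, with its single core match in capitals.
Foxo1: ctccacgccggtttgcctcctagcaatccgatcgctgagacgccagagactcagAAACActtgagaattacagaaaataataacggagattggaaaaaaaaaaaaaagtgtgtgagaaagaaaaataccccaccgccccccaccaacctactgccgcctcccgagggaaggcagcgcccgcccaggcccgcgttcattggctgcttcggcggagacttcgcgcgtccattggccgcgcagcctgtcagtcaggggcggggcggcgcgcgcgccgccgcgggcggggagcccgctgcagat

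Foxo3 (chr10:42181841-42276755, minus strand) passed in no line. In EA1 it stood at 69.7, 83.4, 131 and 208 CPM with DMSO but between 103 and 111 CPM with alectinib on all 4 days. In EA3 it stood at 34.5, 36.5, 70.9 and 127 CPM with DMSO and at 63.1, 67.7, 41.5 and 89.1 CPM with alectinib. In both lines the alectinib library was higher on days 1 and 2 and lower on days 3 and 5. The log2 fold changes over all days were -0.05 (95% confidence interval -0.67 to 0.56) in EA1 and 0.12 (-0.51 to 0.74) in EA3. In EA2 the daily log2 ratio was between 0.30 and 0.71, and the change of 0.56 missed the threshold (95% confidence interval -0.05 to 1.17, adjusted p = 0.173). It passed there with EA2 fitted alone (adjusted p = 0.0135) and without a filter on low counts (adjusted p = 0.0479). Foxo4 (X chromosome, 101254528 to 101260873, plus strand) had levels between 18.3 and 50.7 CPM over all 24 libraries. In EA3 its ratio lay below 0 on 4 of 4 days, with DMSO at 24, 33.8, 43.0 and 50.7 CPM and alectinib at 20.9, 28.0, 31.2 and 24.6 CPM. The change of -0.49 (95% confidence interval -0.89 to -0.09) missed the threshold (adjusted p = 0.0572) but passed with DESeq2 (adjusted p = 0.0439). It also passed with all 26 libraries (adjusted p = 0.0295), but that fit counts the 2 day 7 libraries, which were closest to EA2, as EA3. Foxo4 changes in EA1 and EA2 were 0.14 (-0.26 to 0.54) and -0.06 (-0.47 to 0.34).

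Sesn3 encodes a sestrin, one of a family of stress-induced proteins that restrain the growth kinase complex mTORC1, and it is a known FOXO target (chr9:14275067-14333101, plus strand). In EA1 it stood at 33.4, 18.9, 16.8 and 20.3 CPM with DMSO and at 75.6, 92.2, 95.7 and 102 CPM with alectinib. In EA3 it stood at 47.3, 37.4, 60.0 and 35.1 CPM with DMSO and at 169.8, 216, 137 and 259.6 CPM with alectinib. In EA2 the values were 111, 102, 81.3 and 113 CPM with DMSO and 152, 86.8, 119 and 80.4 CPM with alectinib. All alectinib libraries of EA1 and EA3 lay above all DMSO libraries of the same line, whereas in EA2 the groups overlapped and the ratio lay above 0 on 2 days and below 0 on 2. Sesn3 rose by 2.07 on the log2 scale in EA1 (SE 0.29, 4.21-fold, adjusted p = 0.000199) and by 2.11 in EA3 (SE 0.29, 4.32-fold, adjusted p = 0.000174). In EA2 the change was 0.07 (95% confidence interval -0.52 to 0.66, adjusted p = 0.878). Both calls were kept under all 12 alternatives run, with values from 1.89 to 2.37 in EA1 and from 1.76 to 2.39 in EA3.

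The response of Sesn3 differed between lines, and it was the only one of the 9 genes to pass that test (adjusted p = 0.00988), which 6.84% of all tested genes passed. The change in EA2 was 2 lower than in EA1 on the log2 scale (a difference of -2, SE 0.40, adjusted p = 0.0111), a test that 6.44% of all genes passed. The change in EA3 was 2.04 higher than in EA2 (SE 0.39, adjusted p = 0.0161), beside 2.86% of all genes. The change in EA3 differed from that in EA1 by 0.04 (95% confidence interval -0.82 to 0.90), and none of the 9 genes passed that comparison, which 1.79% of all genes passed by edgeR's test. Without the adjustment, 1 of the 9 genes, Foxo4, would have passed there. So would Bcl6 between EA1 and EA2, and Foxo1 and Bcl6 between EA2 and EA3, beside Sesn3 in both. The share of all tested genes without the adjustment is not given here, so no excess can be read from these genes. The Sesn3 difference over all 3 lines missed the threshold without day 2 (adjusted p = 0.0786) and without day 5 (adjusted p = 0.0829). The step from EA1 to EA2 was lost without day 2 (-1.76, adjusted p = 0.056), day 3 (-1.98, adjusted p = 0.0531) or day 5 (-1.68, adjusted p = 0.0743). The step from EA2 to EA3 was lost without day 2 (1.75, adjusted p = 0.0943) or day 5 (1.59, adjusted p = 0.127). It was also lost with all 26 libraries (1.72, adjusted p = 0.119), but that fit counts the 2 day 7 libraries, which were closest to EA2, as EA3. With DMSO, EA2 already held 4.55-fold more Sesn3 than EA1 (log2 difference 2.18, SE 0.23, adjusted p = 1.21e-05), and its DMSO levels of 81.3 to 113 CPM covered the alectinib levels of EA1 from day 2 on. The promoter window of Sesn3 (GRCm38.p6, chr9:14276051-14276350, plus strand) held no match to the core.
Sesn3: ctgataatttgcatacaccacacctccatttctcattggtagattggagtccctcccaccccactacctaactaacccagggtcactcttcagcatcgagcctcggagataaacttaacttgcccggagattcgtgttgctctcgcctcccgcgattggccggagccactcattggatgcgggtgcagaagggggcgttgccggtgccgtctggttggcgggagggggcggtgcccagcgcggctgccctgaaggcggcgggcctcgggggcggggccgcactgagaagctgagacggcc

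Sesn1, another sestrin gene that FOXO factors are known to induce (chr10:41809935-41908424, plus strand), had levels between 6.63 and 24 CPM over the 24 libraries. Its changes were 0.38 in EA1 (95% confidence interval -0.20 to 0.97), 0.31 in EA2 (-0.27 to 0.88) and 0.37 in EA3 (-0.22 to 0.97), and none passed. In EA3 the ratio was within 0.11 of 0 on days 1, 2 and 3 and 1.37 on day 5, when Sesn1 stood at 7.08 CPM with DMSO and 18.7 CPM with alectinib. Sesn1 was the only one of the 8 genes with a RefSeq promoter window to hold the longer forkhead motif TGTTTAC or its reverse complement GTAAACA, which 3.65% of all windows hold. The match begins 22 bases downstream of the RefSeq start in the upstream window (GRCm38.p6, chr10:41810324-41810623, plus strand), and the core within it is in capitals.
Sesn1: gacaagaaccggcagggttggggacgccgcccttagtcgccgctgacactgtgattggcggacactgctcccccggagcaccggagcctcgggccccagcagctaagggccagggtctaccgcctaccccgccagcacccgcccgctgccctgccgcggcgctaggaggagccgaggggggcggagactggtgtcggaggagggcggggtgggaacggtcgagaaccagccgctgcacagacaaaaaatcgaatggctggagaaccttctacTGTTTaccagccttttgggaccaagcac

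The core TGTTT or AAACA, which lies within the longer motif, was found in 7 of the 10 windows of these 8 genes (Pik3ca, Pik3ip1, Foxo1, Ccng2, both of Sesn1 and 1 of 2 of Bcl6). Foxo4 had no window in the table used. Of the 3 genes that rose in any line, Pik3ip1 and Foxo1 each held 1 core match and Sesn3 held none.

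Bcl6 encodes a transcriptional repressor that FOXO factors are known to induce in lymphocytes (chr16:23965052-23988852, minus strand), and here it fell. In EA1 it stood at 38.4, 66.6, 85.3 and 70.4 CPM with DMSO and at 34.9, 34.0, 33.7 and 32.3 CPM with alectinib. In EA3 it stood at 20.5, 31.1, 70.2 and 73.0 CPM with DMSO and at 16.4, 15.9, 13.3 and 18.6 CPM with alectinib. All alectinib libraries of both lines lay below all DMSO libraries of their line, and the gap was narrowest on day 1. In EA2 the values were 32.4, 33.0, 76.7 and 45.7 CPM with DMSO and 46.5, 45.2, 54.6 and 47.2 CPM with alectinib, and the groups overlapped. Bcl6 fell by 1.42 on the log2 scale in EA3 (SE 0.31, adjusted p = 0.00361) and by 0.90 in EA1 (SE 0.29, adjusted p = 0.0315). In EA2 the change was 0.13 (95% confidence interval -0.50 to 0.76). The difference between lines missed the threshold (adjusted p = 0.0792) but passed with DESeq2 (adjusted p = 0.0226), without day 1 (adjusted p = 0.0384) and without a filter (adjusted p = 3.92e-05). The EA1 call was lost without day 2 (-0.95, adjusted p = 0.0761), day 3 (-0.78, adjusted p = 0.0798) or day 5 (-0.86, adjusted p = 0.108).

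Ccng2 encodes an unconventional cyclin that is linked to cell cycle arrest and is a known FOXO target (chr5:93267257-93276231, plus strand). Its ratio of alectinib to DMSO changed with the day. From day 1 to day 5 the DMSO level rose more than the alectinib level in EA1 and EA3. In EA2 the DMSO level rose and the alectinib level fell. In EA3 it stood at 52.0, 152, 181 and 325 CPM with DMSO and at 89.7, 101, 80.2 and 119 CPM with alectinib. In EA1 it stood at 51.8, 68.9, 62.8 and 189.9 CPM with DMSO and at 74.3, 92.3, 94.1 and 96.2 CPM with alectinib. In EA2 the values were 59.4, 81.2, 103 and 91.9 CPM with DMSO and 86.7, 76.9, 78.6 and 49.9 CPM with alectinib. On day 1 the alectinib library was the higher in all 3 lines (log2 ratios 0.52, 0.54 and 0.78), and on day 5 it was the lower in all 3 (-0.98, -0.88 and -1.44). Over all days the changes were 0.14 in EA1 (95% confidence interval -0.60 to 0.88), -0.20 in EA2 (-0.94 to 0.53) and -0.63 in EA3 (-1.38 to 0.12), and none passed. Without day 1 Ccng2 fell in EA3 by 1.07 (adjusted p = 0.0207), and it also passed there without a filter on low counts (-0.66, adjusted p = 0.0113).

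The effect on Ccng2 changed by -0.72 on the log2 scale per doubling of days (SE 0.13, adjusted p = 0.0149). In this fit Ccng2 was the only one of the 9 genes to pass, a test that 4.06% of all tested genes passed. Bcl6 (-0.52, adjusted p = 0.0552), Foxo3 (-0.50, adjusted p = 0.0559) and Pik3ip1 (-0.52, adjusted p = 0.123) had negative estimates that missed the threshold, and Sesn3 had an estimate of 0.15 (95% confidence interval -0.25 to 0.56). Of those that missed, Bcl6 passed without day 3 (adjusted p = 0.0329), with DESeq2 (adjusted p = 0.00827), with DESeq2 size factors in edgeR (adjusted p = 0.0495) and with at least 10 counts in every library (adjusted p = 0.0349). Foxo3 passed without day 3 (adjusted p = 0.0389), with DESeq2 (adjusted p = 0.00792) and with at least 10 counts (adjusted p = 0.0347), and Pik3ip1 without day 3 (adjusted p = 0.0294) and with DESeq2 (adjusted p = 0.0482). The Ccng2 call was lost without day 1 (-0.78, adjusted p = 0.485) or day 5 (-0.63, adjusted p = 0.358). In those fits 0 of 14366 and 1 of 14270 genes passed, so the loss is not particular to Ccng2.

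**Figure D3:**
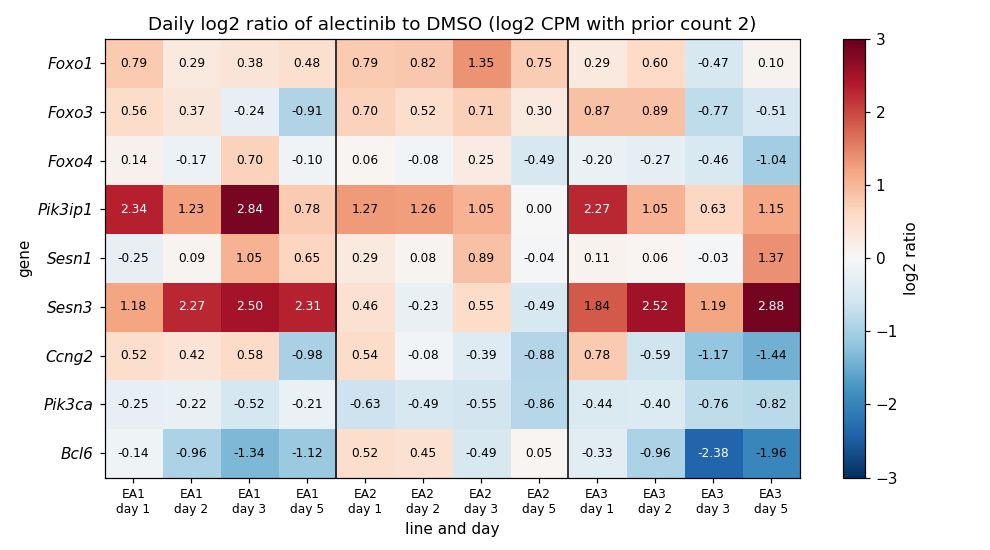
Daily log2 ratio of alectinib to DMSO (colour and printed value, from log2 CPM with a prior count of 2) for the 9 genes (rows) on the 4 days of EA1, EA2 and EA3 (columns). Pik3ca is below 0 in all 12 columns, Ccng2 goes from above 0 on day 1 to below 0 on day 5 in each line, and Sesn3 reaches 2.88 in EA3 on day 5 but stays between -0.49 and 0.55 in EA2.

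Levels without drug also moved over the days of culture. In a fit added after these levels had been seen, 5 of the 9 genes rose with DMSO per doubling of days, where 23.7% of all tested genes passed and 12.2% rose. The slopes were 0.80 for Pik3ip1 (SE 0.19, adjusted p = 0.00693), 0.72 for Ccng2 (SE 0.12, adjusted p = 0.00128) and 0.62 for Foxo3 (SE 0.12, adjusted p = 0.00177) on the log2 scale. Bcl6 (0.56, adjusted p = 0.00323) and Foxo1 (0.46, adjusted p = 0.00764) rose too. Sesn3 (-0.15), Sesn1 (-0.08) and Pik3ca (0.09) did not pass, and Foxo4 (0.28, adjusted p = 0.064) missed the threshold but passed with DESeq2 (adjusted p = 0.0454) and without day 3 (adjusted p = 0.0165). Over the same libraries, 14 of 15 proliferation genes fell with DMSO (median slope -0.74, beside 0.02 over all tested genes), and their part in the rise of the FOXO-related genes was not tested. Without day 1 all 5 calls were lost (adjusted p from 0.159 to 0.414), with slopes from 0.39 (Bcl6) to 0.96 (Foxo3). In that fit 0 of 14366 genes passed, so the loss is not particular to these genes. Without day 5 Foxo3 (adjusted p = 0.0585) and Pik3ip1 (adjusted p = 0.121) were lost.

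With DMSO alone, 4 of the 9 genes differed between EA2 and EA1, 3 between EA3 and EA1 and 4 between EA3 and EA2, beside 40.8%, 32.6% and 36.5% of 12886 genes tested in these 12 libraries. Foxo1 was lower in EA2 (25.0 ± 5.97 CPM, SD, n = 4) than in EA1 (56.8 ± 19.1) and EA3 (52.5 ± 23.5), by -1.18 against EA1 (SE 0.21, adjusted p = 0.000853), and EA3 exceeded EA2 by 1.03 (SE 0.21, adjusted p = 0.00242). Foxo3 was highest in EA1 (123 ± 62.6 CPM), with log2 differences of -1.05 for EA2 (adjusted p = 0.00149) and -0.93 for EA3 (adjusted p = 0.00386). Without the day as a block, both Foxo3 calls were lost (adjusted p = 0.0595 and 0.171).

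The inhibitor and target genes had other orders among the lines. Pik3ip1 was 4.12-fold higher in EA2 than in EA1 (log2 difference 2.04, SE 0.44, adjusted p = 0.00298), and EA3 lay between them with neither difference passing (1.04 above EA1, adjusted p = 0.0834, and -1 against EA2, adjusted p = 0.0761). Both passed with DESeq2 (adjusted p = 0.0457 and 0.0385) and without a filter (adjusted p = 0.00238 and 0.000907), and the latter with library size alone (adjusted p = 0.0495). Sesn3 fell into the order EA2, EA3, EA1, with 102 ± 14.5, 45.0 ± 11.4 and 22.3 ± 7.49 CPM (SD, n = 4), and all 3 steps passed (EA3 against EA1 1.04, adjusted p = 0.00364, and EA3 against EA2 -1.14, adjusted p = 0.00155). Sesn1 was lower in EA3 than in EA2 (-0.88, adjusted p = 0.0153), a call lost without day 2 (-0.97, adjusted p = 0.0539) or day 5 (-0.73, adjusted p = 0.106). Ccng2 was higher in EA3 than in EA1 (0.88, adjusted p = 0.0317) and EA2 (0.87, adjusted p = 0.0325). The Ccng2 calls were lost without the day as a block (adjusted p = 0.188 and 0.108) and without day 2 (0.79 in both, adjusted p = 0.155 and 0.137), day 3 (0.70, adjusted p = 0.136, and 0.87, adjusted p = 0.068) or, against EA2, day 5 (0.59, adjusted p = 0.145) and with library size alone (0.72, adjusted p = 0.0645). Pik3ca did not pass in any pair, with means of 98.7, 121 and 116 CPM in EA1, EA2 and EA3.

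Set in order over the 6 groups of line and treatment, most neighbouring means lay within the larger of their SDs. For Sesn3 the order ran from EA3 alectinib (196 ± 53.6 CPM, SD, n = 4) through EA2 alectinib (109.6 ± 33.0), EA2 DMSO (102 ± 14.5), EA1 alectinib (91.3 ± 11.1) and EA3 DMSO (45.0 ± 11.4) to EA1 DMSO (22.3 ± 7.49). The neighbours EA2 alectinib and EA2 DMSO, and EA2 DMSO and EA1 alectinib, did not differ beyond their SD. For Pik3ca the only step beyond the SD was between EA1 DMSO (98.7 ± 13.8 CPM) and EA1 alectinib (79.8 ± 7.84), which parted all DMSO groups from all alectinib groups. For Bcl6 it was the step from EA1 alectinib (33.7 ± 1.08 CPM) to EA3 alectinib (16.0 ± 2.19), and for Foxo1 the step from EA2 alectinib (50 ± 22.3 CPM) to EA2 DMSO (25.0 ± 5.97). For Sesn1 it was the step from EA2 alectinib (19.4 ± 3.15 CPM) to EA2 DMSO (15.7 ± 2.74). For Pik3ip1, which ran from EA2 alectinib (44.9 ± 17.8 CPM) to EA1 DMSO (7.09 ± 6.90), and for Foxo3, Foxo4 and Ccng2, no neighbours differed beyond their SD.

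Per kilobase of exon, Ccng2 had the highest mean of the 9 genes with DMSO in EA2 and EA3, at 15.4 and 32.5 CPM per kb. On day 1 it lay below Pik3ca in both lines (at 10.9 in EA2, and at 9.53 against 10.4 in EA3), and in EA3 it reached 59.5 on day 5. In EA1 its mean was 17.1 CPM per kb, but day 5 stood at 34.8 and the other days at 9.49, 12.6 and 11.5, and on days 1 and 3 it lay below Pik3ca (11.9 and 12.4). Means of Pik3ca were 10.9, 13.3 and 12.7 CPM per kb. Among the FOXO factors, Foxo3 led in EA1 (16.2 CPM per kb against 8.23 for Foxo4 and 6.56 for Foxo1), whereas in EA2 Foxo3 (7.46) and Foxo4 (7.49) lay above Foxo1 (2.89). In EA3 the means were 10.9 for Foxo4, 8.87 for Foxo3 and 6.06 for Foxo1. Sesn3 and Pik3ip1 were the lowest of the 9 genes in EA1 with DMSO (means of 1.46 and 1.66 CPM per kb). Their order turned on the day, since Pik3ip1 lay below Sesn3 on days 1 and 3 (0.686 and 0.475 against 2.19 and 1.10) and reached 3.99 on day 5. With alectinib Sesn3 stood at 5.98 CPM per kb in EA1. In EA3 it went from 2.94 to 12.8 CPM per kb.

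Other genes of the PI3K and AKT pathway moved in either direction, in numbers near or below the share of all genes. Of 31 tested genes of a 33-gene list, 6 rose and 4 fell in EA1, 5 rose and 3 fell in EA2, and 8 rose in EA3. These 10, 8 and 8 genes of 31 stand beside 33.6%, 24.4% and 32.6% of all tested genes. The list medians were 0.03, 0.25 and 0.24, beside 0.06, 0 and 0.07 for all genes. Pik3r1, the main regulatory subunit of PI3K, rose in all 3 lines, by 2.18, 2.28 and 1.44 on the log2 scale (SE 0.26 in each, adjusted p at most 0.00101). Its levels in EA1 were 121, 102, 79.5 and 100 CPM with DMSO and 339, 462, 556 and 473 CPM with alectinib, and the groups did not overlap in any line. The transcript of this regulatory subunit thus rose in EA2 and EA3, where that of the catalytic subunit Pik3ca fell. Pik3cb, the beta catalytic subunit, rose in EA2 (1.10, SE 0.22) and EA3 (0.93, SE 0.22) but stood at -0.07 in EA1 (SE 0.22), and its EA3 call was lost without day 2 (0.62, adjusted p = 0.0767). The regulatory subunit Pik3r3 rose in EA1 (2.74, SE 0.44) and EA3 (1.77, SE 0.41), the latter lost without day 2 (1.61, adjusted p = 0.0557).

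Genes that carry the signal into PI3K or oppose it moved as well. Irs2, an adaptor between receptors and PI3K and a known FOXO target, rose by 2.42 in EA1 (SE 0.25) and 2.56 in EA2 (SE 0.25), while in EA3 it stood at 0.53 (SE 0.24, adjusted p = 0.107), and this difference between lines passed (adjusted p = 0.00504). In EA2 Irs2 went from 33.5, 31.1, 26.5 and 37.5 CPM with DMSO to 152, 163, 291 and 178 CPM with alectinib. Igf1r, a growth factor receptor, rose in EA3 (1.04, SE 0.21). Inpp4b, a phosphatase that removes PI3K lipid products, fell by 1.45 in EA1 (SE 0.36) and by 1.43 in EA2 (SE 0.34), calls that were lost without the day as a block (adjusted p = 0.0513 and 0.139) and, in EA2, without day 2 (-1.25, adjusted p = 0.0686) or day 5 (-1.22, adjusted p = 0.0538). Sgk3, a kinase related to AKT, rose by 3.13 in EA2 (SE 0.35). Its rises in EA1 (0.96, SE 0.28) and EA3 (0.83, SE 0.28) were lost with each single day left out (adjusted p from 0.0534 to 0.121 in EA1 and from 0.0659 to 0.13 in EA3), and without a filter (adjusted p = 0.0778 and 0.145). That in EA1 was also lost with all 26 libraries (adjusted p = 0.163), and that in EA3 without the day as a block (adjusted p = 0.0528) and with EA3 fitted alone (adjusted p = 0.0614).

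**Figure D4:**
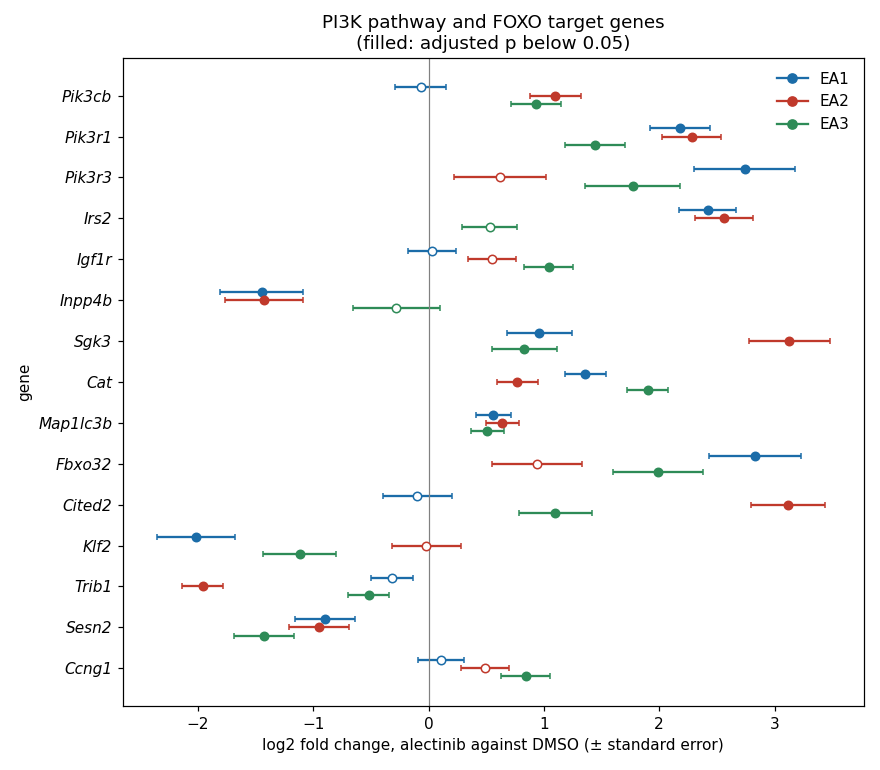
Log2 fold change of alectinib against DMSO (x axis, bars are the standard error) for 15 genes of the PI3K pathway and of the FOXO target and paralog lists (y axis) in EA1 (blue), EA2 (red) and EA3 (green), with filled points for an adjusted p below 0.05. Pik3r1 lies between 1.44 and 2.28 in all lines and Sesn2 between -1.43 and -0.90, while Irs2, Cited2 and Klf2 are spread between the lines.

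Of 25 known FOXO targets outside the 9 genes, 20 were tested. In EA1 10 rose and 1 fell, in EA2 6 rose and 2 fell, and in EA3 4 rose and 3 fell. These 11, 8 and 7 genes of 20 stand beside 33.6%, 24.4% and 32.6% of all tested genes, and the count in EA3 lay near that share. The medians were 0.50, 0.50 and -0.02, beside 0.06, 0 and 0.07 for all genes. Cat, which encodes the peroxide-degrading enzyme catalase, rose in all 3 lines, by 1.36, 0.77 and 1.90 (SE 0.18 in each), and the difference between lines passed (adjusted p = 0.0384). Map1lc3b, an autophagosome protein, rose by 0.56, 0.64 and 0.51 (SE 0.15, 0.14 and 0.14). Its EA1 call was lost without day 1 (0.37, adjusted p = 0.0711) and its EA3 call without day 2, 3 or 5 (adjusted p from 0.0573 to 0.0649). Both were also lost without a filter (adjusted p = 0.0504 and 0.0756) and with each line fitted alone (adjusted p = 0.0674 and 0.0614). Fbxo32, a ubiquitin ligase of muscle wasting, rose by 2.83 in EA1 (SE 0.40) and 1.99 in EA3 (SE 0.39) and stood at 0.94 in EA2 (SE 0.39, adjusted p = 0.0994). Cited2, a regulator of transcriptional coactivators, rose by 3.12 in EA2 (SE 0.32) and 1.10 in EA3 (SE 0.32) but stood at -0.10 in EA1, and it differed between lines (adjusted p = 0.0022). Members also fell. The transcription factor Klf2 fell by 2.02 in EA1 (SE 0.34) and by 1.12 in EA3 (SE 0.32), and the pseudokinase Trib1 fell by 1.96 in EA2 (SE 0.18) and by 0.52 in EA3 (SE 0.18). In EA3 the Klf2 call was lost without day 1 (-0.96, adjusted p = 0.0985) or day 5 (-0.88, adjusted p = 0.0561). It was also lost with all 26 libraries (-0.81, adjusted p = 0.0762), where the 2 day 7 libraries closest to EA2 count as EA3. The Trib1 call in EA3 was lost with each single day left out, without the day as a block, with library size alone, without a filter and with EA3 fitted alone (adjusted p from 0.0506 to 0.118).

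Near relatives of the 9 genes did not all move with them. Sesn2, the other sestrin and a known stress response gene, fell in all 3 lines, by 0.90, 0.95 and 1.43 (SE 0.26 in each), where Sesn3 rose in EA1 and EA3. Its EA1 call was lost without day 2 (-0.83, adjusted p = 0.0517) or day 3 (-0.77, adjusted p = 0.107), its EA2 call without day 3 (-0.89, adjusted p = 0.0897) or day 5 (-0.88, adjusted p = 0.0938), and both without the day as a block (adjusted p = 0.11 and 0.158). In EA3 Sesn2 stood at 18.0, 48.2, 79.7 and 58.3 CPM with DMSO and at 13.6, 14.3, 24.1 and 17.2 CPM with alectinib. Ccng1, the other G-type cyclin, rose in EA3 (0.84, SE 0.21), a call lost without day 5 (0.74, adjusted p = 0.0544), and stood at 0.11 in EA1 and 0.49 in EA2. The fourth FOXO gene, Foxo6, was at most 3.31 CPM in any library and at 0 in all EA2 libraries with alectinib.

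Of 6 tested genes that Bcl6 is known to repress, 2 rose and 2 fell in EA1, 1 rose in EA2 and 3 rose in EA3, with medians of 0.33, -0.22 and 0.54 beside 0.06, 0 and 0.07 for all genes. These 4, 1 and 3 genes of 6 stand beside 33.6%, 24.4% and 32.6% of all tested genes, and 6 genes are too few to read a difference from. Socs2, a brake on cytokine signalling, fell by 1.91 in EA1 (SE 0.30) where Bcl6 itself fell. Id2, an inhibitor of helix-loop-helix factors, rose by 0.74 in EA2 (SE 0.18) and by 0.60 in EA3 (SE 0.17). The Id2 calls were lost without day 1 (0.66, adjusted p = 0.0622, and 0.56, adjusted p = 0.0854) or day 2 (0.60, adjusted p = 0.0661, and 0.61, adjusted p = 0.0562), and in EA3 without the day as a block (adjusted p = 0.106). Of 15 proliferation genes, 4 fell and none rose in each line (medians -0.49, -0.93 and -0.84). Of all 14264 tested genes, 2080, 1615 and 2157 fell, and 33.6%, 24.4% and 32.6% passed in either direction. The replication clamp Pcna was among the proliferation genes that fell, by 1.07, 0.89 and 1.16 (SE 0.21 in each). The Pcna call in EA2 was lost without the day as a block (adjusted p = 0.0594).

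The genes whose 12 daily log2 ratios followed each of the 9 genes most closely were found by Pearson correlation over the 12 line and day pairs, as a description. Sesn3 was followed most closely by Abca1 (r = 0.962), Bace1 (0.954) and Lrrc8b (0.95), Pik3ip1 by Slc2a8 (0.952), Sema4g (0.944) and Pik3r2 (0.931), and Ccng2 by Pdxp (0.972), Usp3 (0.940) and the FOXO target list gene Mxi1 (0.938). The closest gene was Chp1 for Foxo1 (0.898), Nrp2 for Foxo3 (0.937), Hdac7 for Foxo4 (0.938), H6pd for Sesn1 (0.934), Wfs1 for Pik3ca (0.905) and Zfp36 for Bcl6 (0.953). Each pair of genes was read from the same 24 libraries, so that their ratios share the noise of those libraries.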

How the data were processed

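Libraries were poly(A) selected with a stranded kit and read as 2 x 151 bases. Per the labels and the study's methods, the authors checked reads with FastQC, trimmed them, mapped them to mm10 with STAR and deposited raw counts per gene symbol. The annotation release and the strand setting of the counting are not given in the sources used here. Of 55415 rows, 24 are date numbers in place of symbols. They took 0.129% to 0.201% of the counts of a library and were left out. Gene positions and exon lengths came from GENCODE vM21 (mm10), with which 55314 of 55391 symbols matched, and promoter windows from RefSeq (GRCm38.p6).

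Counts were analysed with edgeR 4.0.16 in R 4.3.3 (TMM factors, filterByExpr, robust quasi-likelihood tests), with DESeq2 1.42.0 as an alternative, and summarised in Python 3.11.15. The 24 libraries entered 1 fit with 12 blocks of line and day, 1 alectinib effect per line, and in a further fit 1 slope of that effect on log2 day shared by the lines. The 12 DMSO libraries were fitted with line and day. Standard errors were derived from the log2 fold change and its F statistic, and p-values were adjusted by Benjamini and Hochberg with a threshold of 0.05. DMSO and alectinib libraries of a block share a labelled culture day. Their deviations from the group means correlated over 0.1 in 6 of 12 pairs (from -0.300 to 0.549), and the fit without the block is an alternative. Daily ratios used log2 CPM with a prior count of 2. The scripts were tested on simulated data.

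The 9 genes, the gene lists and the tests were chosen with earlier results of these data known. The naming rule covered the 9 genes throughout and, from the other lists, genes that passed with 1 sign in all 3 lines and up to 3 per line with the largest change, 1 sign on 4 of 4 days and a mean log2 CPM of 3 or more, of which some are described. Some items are not reported here. Alternatives changed the size factors, the filter, the tool, the block, the lines or libraries in the fit, or left out 1 day. A count of 3 was the floor of detection, and intervals on counts cover counting error only.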

Additional observations from a re-analysis of the deposited data

Results flagged for a closer look

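The 2 libraries labelled EA3 day 7, which were closest to EA2 libraries, held levels of the 9 genes that entered only the alternative fits with all 26 libraries. The log2 ratio of alectinib to DMSO was 0.78 for Pik3ip1 (186 and 477 counts, 95% counting interval 0.54 to 1.04), 0.61 for Sesn1 (106 and 241 counts, 0.28 to 0.95) and 0.55 for Sesn3 (552 and 1203 counts, 0.40 to 0.70), each above the DMSO library. With 1 library per treatment these ratios have no replicate check, and the intervals cover counting error only. Ratios below 0 were found for Bcl6 (-1.78), Ccng2 (-1.46), Pik3ca (-1.32), Foxo3 (-0.63), Foxo4 (-0.35) and Foxo1 (-0.20).

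By Dixon's test of the farthest of 4 libraries, 3 of 54 groups of line, treatment and gene held a library far from the others. Independent draws would give about 1 in 20. The 4 libraries are days of a time course, and some levels moved with the day, so that rate need not hold here. These were Foxo4 at 39.3 CPM in EA2 with alectinib on day 3, Pik3ip1 at 29.4 CPM in EA1 with alectinib on day 5, and Ccng2 at 189.9 CPM in EA1 with DMSO on day 5. Without day 5, Pik3ip1 in EA1 kept its call. The change of the Ccng2 effect with days was then -0.63 and lost its call (adjusted p = 0.358, edgeR). Only 1 of 14270 genes passed in that fit, so the loss is not particular to Ccng2.

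The alectinib effect on Sesn3 differed between the lines by the test of that difference (adjusted p = 0.00988), at 2.07 (EA1), 0.07 (EA2) and 2.11 (EA3) on the log2 scale, with ratios above 0 on 4, 2 and 4 of 4 days.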

How the results depend on the processing

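Gene counts and the comparisons of the 9 genes were recomputed under other settings, 1 choice at a time. Pairwise differences of the alectinib effect were recomputed only for Sesn3. For other genes, alectinib effects were recomputed only in lines where the naming rule picked the gene. Differences between lines for Irs2, Cat and Cited2, the Cited2 call in EA3, and the marker and MAPK response genes were not recomputed. Of the comparisons of the 9 genes that passed, 275 of the recomputed values stayed on the same side of the threshold and 43 lost the call, and none of them turned direction in the alternatives run. Of those that did not pass, 511 stayed so, 32 passed and 36 turned direction. For the named pathway genes, 547 kept and 84 lost the call. The cause of these changes was not tested.

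Without the day as a block, the calls of Foxo1 in EA1 (adjusted p = 0.319), Pik3ip1 in EA3 (0.105), and Foxo3 and Ccng2 between lines were lost, Ccng2 in EA1 stood at -0.06, Foxo3 in EA3 at -0.04 and Ccng2 in EA2 against EA1 at -0.18, and the change of the effect with days gave 112 genes in place of 579. No other call of the 9 genes was lost in the fits run without the block, which was not run for the DMSO slope.

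Without a filter the difference between lines gave 2698 genes in place of 976 and the change with days 360. DESeq2 gave 1963 and 1388, and all 26 libraries gave 398 between lines. With library size alone, the change with days split into 343 higher and 289 lower in place of 235 and 344, the DMSO slope into 1351 and 2218 in place of 1735 and 1644, alectinib in EA2 into 1650 and 1763 in place of 1860 and 1615, and alectinib in EA3 into 3060 and 1666 in place of 2493 and 2157. With DMSO, EA2 against EA1 split into 3499 and 1900 in place of 2642 and 2616, and EA3 against EA2 into 1944 and 3080 in place of 2490 and 2209.

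Values near 0 turned sign. Bcl6 in EA3 against EA2 with DMSO, at 0, became -0.01 with DESeq2 size factors and with DESeq2, -0.15 with library size, -0.03 without a filter and -0.02 with at least 10 counts in every library. With library size, Foxo3 became 0.03 in EA1 and -0.04 in EA3 against EA2. With all 26 libraries, Foxo3 became -0.07 in EA3 and the Sesn3 difference of EA3 and EA1 -0.23.

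With 1 day left out in turn, genes past the threshold ranged from 2796 to 4088 in EA1, 2142 to 2654 in EA2, 2836 to 3889 in EA3, 211 to 792 between lines, 0 to 1115 for the change with days, 2525 to 3975 for EA3 against EA1, 3067 to 4601 for EA3 against EA2 and 0 to 3359 for the DMSO slope. Alectinib effects ranged in EA1 from -0.28 to 0.19 (Foxo3), -0.08 to 0.18 (Foxo4) and -0.05 to 0.47 (Ccng2), in EA2 from -0.18 to 0.08 (Foxo4), -0.09 to 0.26 (Sesn3), -0.45 to 0.02 (Ccng2) and 0 to 0.34 (Bcl6), and in EA3 from -0.07 to 0.31 (Foxo1) and -0.19 to 0.40 (Foxo3). The Sesn3 difference of EA3 and EA1 ranged from -0.17 to 0.50, the Foxo4 change with days from -0.32 to 0.06 and the Sesn3 DMSO slope from -0.22 to 0.05. With DMSO, EA2 against EA1 ranged from -0.17 to 0.32 (Ccng2), EA3 against EA1 from -0.29 to 0.09 (Foxo1), and EA3 against EA2 from -0.17 to 0.26 (Foxo3) and -0.26 to 0.19 (Bcl6).

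With 1 library per line, treatment and day, repeated cultures of a day could not be compared, and each fit without a day rests on 3 libraries per group.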
